A study of Mus musculus with 4 samples.

Results

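Cdk1-high late spermatocytes of the mouse testis are described here as the 500 cells of each of 2 single-cell libraries that carried most of a small group of genes. Members were selected on the mean deposited value of 6 genes, Adrb1, Ddx51, Zbtb42, Cdk1, Ciart and Arhgef39, within each library, and ties went to the first cell in the table. They made up 500 of 8941 cells in A0 and 500 of 9682 cells in A10, or 1000 of the 27060 cells of the series. A0 was the control library, from mice given water by gavage, and A10 came from mice given alginate oligosaccharides (AOS), short chains made from the seaweed polymer alginate, at 10 mg/kg. Both groups were males of the outbred ICR stock, 3 weeks old at the start of dosing, and neither received busulfan, the alkylating drug given to the mice of the other libraries, B0 (then water) and BA10 (then AOS). According to the methods of the study, 6 mice were pooled for each group and the tubule pieces were washed to remove spermatozoa before digestion. Each group was 1 library, so animals cannot be told apart and no test between the groups was possible. All intervals are 95% counting intervals that leave out the variation between animals and between cells. They are exact except for differences in X-linked share, which are approximate. Bounds beside a median of genes are medians of the genes' own bounds.

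Spermatocytes spend most of meiotic prophase in pachytene, when homologous chromosomes are held together by the synaptonemal complex and the X and Y chromosomes are silenced. At the end of prophase the complex is taken down, Cdk1, the kinase that drives entry into division, is activated by its cyclins, and the spindle separates homologues and then sister chromatids in consecutive divisions with no DNA replication between them. Round spermatids, the haploid products, then elongate and pack their DNA with transition proteins and protamines.

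The rule genes have unlike roles. Cdk1 (chromosome 10, 69335146 to 69352938, mm10) is the division kinase. Ciart (chromosome 3, 95878503 to 95882251) encodes a repressor of the circadian clock, Adrb1 (chromosome 19, 56722199 to 56733113) the beta-1 adrenergic receptor and Ddx51 (chromosome 5, 110653451 to 110660496) a DEAD-box RNA helicase of ribosome assembly. Arhgef39 (chromosome 4, 43496142 to 43499695) encodes a guanine nucleotide exchange factor and Zbtb42 (chromosome 12, 112678828 to 112682747) a zinc finger protein. The 150 bases before the RefSeq start (GRCm38.p6) of Cdk1 and Ciart, the rule genes with most motif matches, and of Aurka and Plk1, division kinases that were not in the rule, are printed because they show the short motifs these genes do and do not share. Capitals mark the letters TTTGAA (the cell cycle genes homology region, CHR), CCAAT (the CCAAT box) and CACGTG (the E-box that clock factors bind), each on either strand, so that ATTGG is a CCAAT box read from the other strand.
Cdk1 (chr10:69352913-69353062, minus strand): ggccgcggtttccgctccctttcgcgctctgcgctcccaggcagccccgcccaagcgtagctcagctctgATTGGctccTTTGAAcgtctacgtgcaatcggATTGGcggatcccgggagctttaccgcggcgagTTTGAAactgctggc
Ciart (chr3:95882229-95882378, minus strand): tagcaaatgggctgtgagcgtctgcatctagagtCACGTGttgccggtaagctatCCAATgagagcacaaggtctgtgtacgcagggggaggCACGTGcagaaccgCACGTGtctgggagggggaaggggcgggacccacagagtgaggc
Aurka (chr2:172370571-172370720, minus strand): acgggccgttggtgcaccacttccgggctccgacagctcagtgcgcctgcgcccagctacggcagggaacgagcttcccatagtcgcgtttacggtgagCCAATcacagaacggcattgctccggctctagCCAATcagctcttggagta
Plk1 (chr7:122159285-122159434, plus strand): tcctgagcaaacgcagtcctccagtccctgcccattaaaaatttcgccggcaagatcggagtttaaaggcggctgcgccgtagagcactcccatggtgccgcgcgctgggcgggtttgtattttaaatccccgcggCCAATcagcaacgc
Cdk1 held 2 CHR matches and Ciart 3 E-boxes in these windows. By the gene coordinates given above, the last 26 bases of the Cdk1 window and the last 23 of the Ciart window lie inside the gene. The CHR match of Cdk1 at 15 to 10 bases before the RefSeq start is in that stretch. In the 250 bases before the start, CACGTG was found in 2 of the 6 rule genes (Ciart and Arhgef39) and in 6.05% of 27025 promoters, and TTTGAA in 1 of 6 (Cdk1) and in 16.3% of all promoters. The MYB element AACNGTT was in 0 of the 6 and in 3.68% of all promoters. CCAAT was in 3 of the 6 (Adrb1, Cdk1 and Ciart) and in 34.5% of all promoters. In Cdk1 and in Aurka, CCAAT boxes on the same strand began 32 bases apart, and the same distance was found in Ccnb1. A pair at a distance of 31 to 33 bases stood in 0.784% of all promoters, in 3 of 29 division genes that were at least 2-fold higher in members than in other cells, in 3 of 26 other division genes tested and in 1 of the 6 rule genes. Among division genes with a RefSeq promoter, CCAAT was in 20 of the same 29 (69.0%) and in 13 of the same 26, so it was common in division genes whether or not they were higher. TTTGAA was in 6 of the 29 (20.7%) and 6 of the 26 (23.1%), beside 16.3% of all promoters. CACGTG was in 3 of the 29 and 0 of the 26, and the MYB element in 0 and 2. The spacing of CCAAT boxes was looked for after the sequences had been seen, and a match of letters is no evidence that a factor binds.

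In both libraries the members stood at the top of a continuous score, not in a separate group. The median score was 0.570 in A0 and 0.578 in A10. In A0 the lowest member scored 0.4663 and the highest cell outside scored 0.4660, and in A10 these values were 0.4853 and 0.4851. Of the other cells, 53.3% in A0 and 55.3% in A10 scored 0.

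Cdk1 was at 301 CPM (UMIs of the gene per 1e+06 UMIs summed over the cells) in A0 members and 306 CPM in A10 members, against 42.9 and 47.6 CPM in the other cells. These levels chose the members and carry no test. A UMI of Cdk1 was found in 99.6% of A0 members and 99.8% of A10 members. Ddx51 stood at 109 and 119 CPM, Zbtb42 at 96.5 and 94.1 CPM, Ciart at 44.3 and 43.2 CPM, Arhgef39 at 38.2 and 35.7 CPM and Adrb1 at 32.0 and 35.1 CPM in members of A0 and A10. All 6 genes had a UMI in 22.2% of A0 members and 15.8% of A10 members, at least 2 had one in every member, and the same was true of all 6 genes in 0.178% and 0.218% of other cells.

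Each rule gene was also measured in cells that the other 5 genes chose, a choice it had no part in. Cdk1 was then at 255 CPM in the 500 chosen cells of A0 and 47.1 CPM in the rest, a log2 ratio of 2.41 (2.35 to 2.47), and in A10 the ratio was 2.19 (2.13 to 2.25). Adrb1 gave 2.91 in A0 (2.73 to 3.08) and 2.59 in A10 (2.41 to 2.77). Ciart gave the lowest ratios, 2.27 in A0 (2.12 to 2.41) and 1.99 in A10 (1.83 to 2.15). Between 79.2% and 92.2% of the cells chosen in this way were members. With every cell thinned to 5000 UMIs before the 6 genes were read, the rule kept fewer, 289 of 500 members in A0 and 287 in A10. The choice of these genes used these libraries, so the ratios describe how the genes occurred together in cells.

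Further sets of 500 cells each served for comparison in both libraries, chosen from the other cells on the mean of 4 marker genes each: pachytene cells on Pou5f2, Mybl1, Piwil1 and Hist1h1t, elongating spermatid cells on Prm1, Prm2, Tnp1 and Tnp2, and round spermatid cells on Acrv1, Spaca1, Tssk1 and Tssk2. Cdk1 was at 65.3 and 66.7 CPM in pachytene cells of A0 and A10, 5.49 and 5.11 CPM in round spermatid cells, and 6.18 and 6.11 CPM in elongating spermatid cells. Arhgef39 was at 4.07 and 4.20 CPM in pachytene cells. A UMI of Cdk1 was found in 8.4% of A0 round spermatid cells, at a median of 13270 UMIs per cell, and in 6.4% of A0 elongating spermatid cells, at 9754 UMIs. Free RNA may add UMIs in these cells, and its part in those shares was not tested. The comparison cells had not met the rule, so their distance from the members in Cdk1 is set by the choice. The plot of the 6 genes by set of cells shows members above pachytene cells for each of them, with Arhgef39 the gene in which pachytene cells came closest to the other cells.

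**Figure D1:**
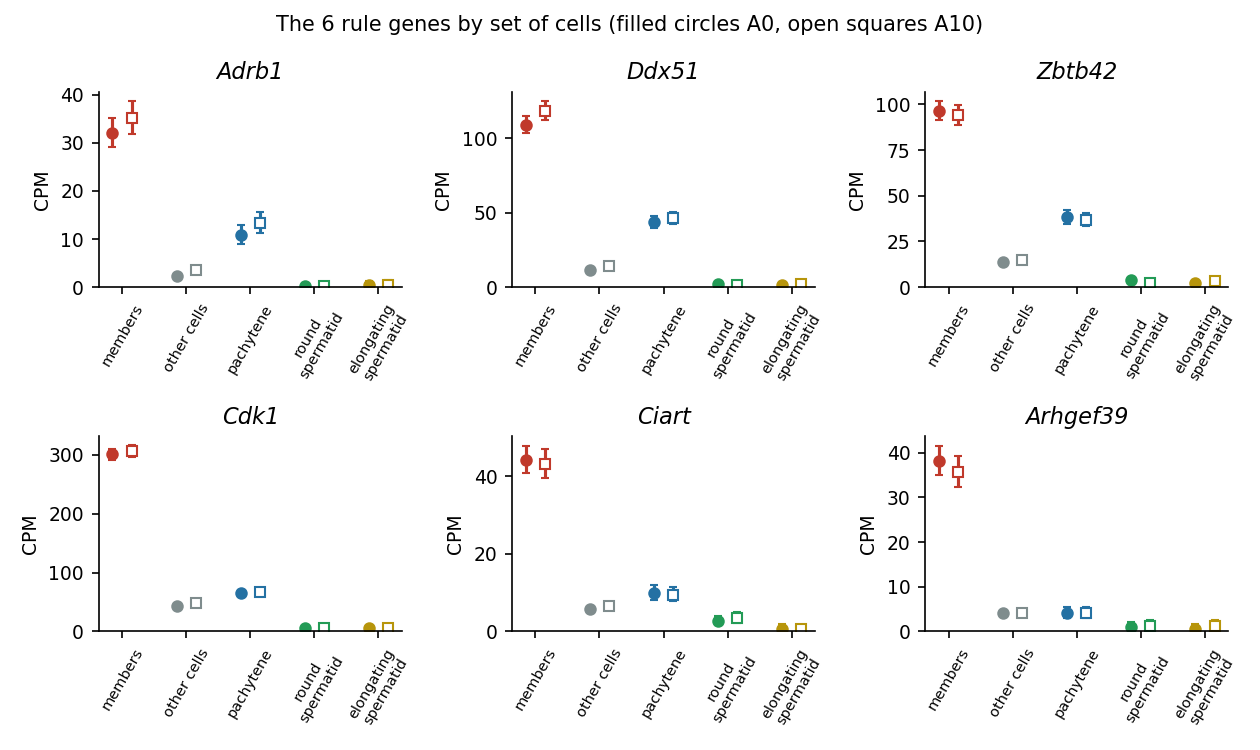
CPM of summed UMIs (y axis, from 0) of each rule gene in 5 sets of cells (x axis), with exact Poisson 95% intervals, filled circles for A0 and open squares for A10. Members were chosen on these genes, and Cdk1 stood at 301 and 306 CPM in them against 65.3 and 66.7 CPM in pachytene cells.

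The spermatocyte part of the label was checked against marker genes outside the rule. Ldhc, the lactate dehydrogenase of spermatocytes and spermatids, was at 10060 CPM in A0 members and 9951 CPM in A10 members, but also at 7568 CPM in other A0 cells and 7639 CPM in A0 round spermatid cells, so it hardly separates these cells. Sycp3, a part of the chromosome axis, was at 328 and 348 CPM against 151 CPM in the other A0 cells. Sycp1, also of the synaptonemal complex, went the other way, with log2 ratios over the other cells of -2.19 in A0 and -2.04 in A10. Of 10 pachytene markers, 2 (Mybl1 and Pou5f2) were at least 2-fold above the other cells in both libraries and 1 (Zfp37) at least 2-fold below. Among all 9884 genes tested, 12.5% were higher and 24.4% lower by this measure. Of these genes, 9014 had a UMI in at least 5% of members of either library. The rest passed the filter through the other cells alone, which can add to the share that was lower. Of 10 round spermatid markers 8 were at least 2-fold lower, and so were 10 of 10 elongating spermatid markers. Prm1, a protamine, was still at 1899 CPM in A0 members and 2836 CPM in A10 members, against 13360 CPM in the other A0 cells, and pachytene cells carried 1695 and 2334 CPM. Summed markers of Leydig, macrophage, endothelial and peritubular myoid cells came to between 1.07 and 3.04 CPM for each type in members of each library, and those of Sertoli cells to 6.87 and 9.95 CPM. In the other cells the sums of these 5 types were low as well, from 2.42 to 17.9 CPM. Red cell markers summed to 1.52 CPM in A0 members and 25.9 CPM in A10 members, against 19.0 and 7.44 CPM in other cells. The part of red cell markers in the comparison of A10 with A0 was not tested. The markers set the members apart from spermatids, and somatic markers were low in members and in other cells alike. Pachytene markers separated them less, with a median log2 ratio over the other cells of 0.56 in A0 and 0.52 in A10. Over all genes tested these medians were 0.27 and 0.24. Whether the members are late among spermatocytes was not tested by these markers.

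Every result below rests on libraries with their own lower limit of UMIs per cell, 7687 in A0 and 6716 in A10. The 2 libraries held 150812974 and 143714595 UMIs. Both held 135 of the same cell barcodes, which 4 members of A0 and 7 members of A10 carried, and 0 of these were members in both. The doublet caller Scrublet marked 4.8% of A0 members and 5.8% of A10 members, against 8.26% and 8.81% of other cells. Marked members carried 7469 and 10646 CPM of Prm1, and members not marked 1540 and 2205 CPM. They were kept.

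Members had a median of 22329.5 UMIs per cell in A0 and 19611 in A10, 1.79 and 1.83 times that of the other cells, and at 5000 UMIs a cell they had 2145 and 2141.5 genes against 2151 and 2134. Since the rule reads more genes in deeper cells, depth is in part set by the choice. UMIs per cell in the members fell into 3 modes, each about 2-fold above the next. Such peaks were not particular to the members, since round spermatid cells of A0 had peaks of 73, 26 and 11 cells a bin with 10 and 3 cells in the lowest bins between them. The emptiest bins between the modes lay at 15136 and 31623 UMIs in A0 and at 12589 and 28840 UMIs in A10, and these bounds, set after the values were seen, divide the members into a low, a middle and a high range. In A0 the ranges held 151, 193 and 156 members with medians of 10382, 22245 and 47088 UMIs, steps of 2.14 and 2.12 times. In A10 they held 117, 235 and 148 members with medians of 8894, 19114 and 40624.5 UMIs, steps of 2.15 and 2.13 times. The rule on thinned cells gave 207, 168 and 125 cells in A0 and 178, 200 and 122 in A10, so the low range grew. Scrublet marked 1.32% of the low, 5.70% of the middle and 7.05% of the high range in A0, and 2.56%, 6.81% and 6.76% in A10. Scrublet does not find droplets that hold cells of the same kind, and their part in the modes was not tested. The low mode of A10 reached down to 6778 UMIs, next to the limit of its library, so shallower cells of this kind would not be in the table.

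**Figure D2:**
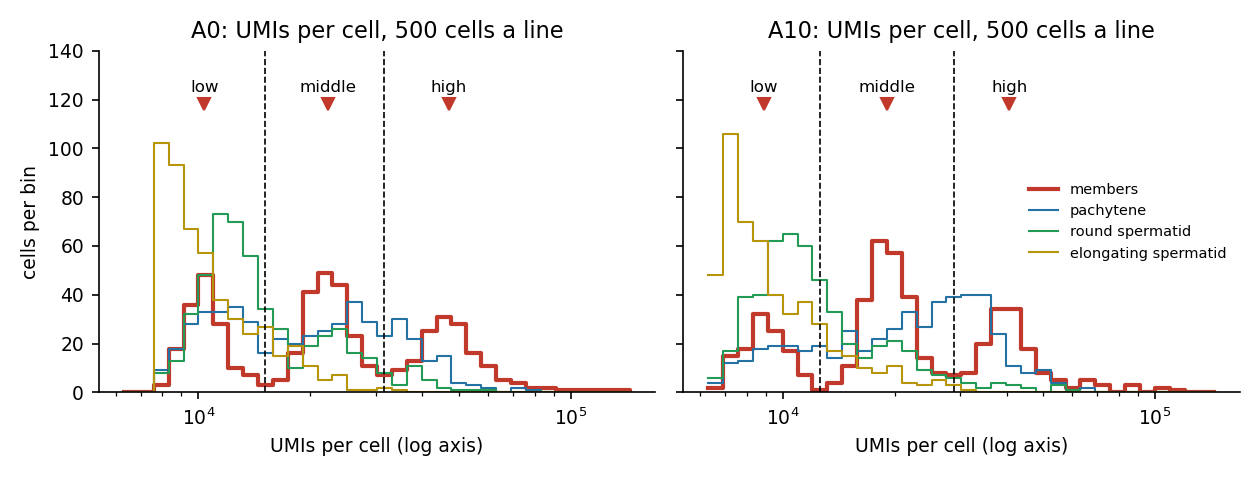
Cells per bin (y axis) by UMIs per cell (x axis, log scale) for the members and the 3 comparison sets, 500 cells each, in A0 and A10. The dashed lines are the bounds of the low, middle and high ranges, and triangles mark the members' medians, 10382, 22245 and 47088 UMIs in A0 and 8894, 19114 and 40624.5 UMIs in A10.

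The ranges differed in their genes and not only in depth. Pou5f2, a POU factor of pachytene cells, was at 183 CPM in the high, 86.3 CPM in the middle and 17.6 CPM in the low range of A0, and at 193, 80.2 and 24.7 CPM in A10. It thus stood lowest in the shallow members of both libraries. Cks2, a small subunit of cyclin-dependent kinases, went the same way, with 261, 147 and 62.2 CPM in A0 and 308, 163 and 85.6 CPM in A10. Hmgb2, a chromatin protein, followed with 99.9, 61.0 and 33.9 CPM in A0 and 121, 62.8 and 46.6 CPM in A10.

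Ccnb1, the B-type cyclin that activates Cdk1, had the opposite order, with 207 CPM in the high, 373 CPM in the middle and 428 CPM in the low range of A0, and 195, 353 and 411 CPM in A10. Bora, a cofactor that lets Aurora A activate Plk1, was at 19.6, 46.7 and 77.3 CPM in A0 and 19.0, 43.3 and 67.6 CPM in A10. Klf2, a Krüppel-like factor, was at 5.70, 6.21 and 23.9 CPM in A0 and 6.89, 5.90 and 31.4 CPM in A10. In the low range it rests on 38 UMIs in A0 and 33 in A10, and by the clusters described below it was at 57.1 CPM in members of cluster 0 and 4.59 CPM in those of cluster 3 in A0, and at 62.7 and 4.71 CPM in A10. Cdk1 itself, which was part of the choice, was at 289, 328 and 287 CPM in A0 and 298, 313 and 327 CPM in A10. Of the other rule genes, Ciart was at 30.9, 57.5 and 74.7 CPM and Adrb1 at 30.7, 40.05 and 16.3 CPM in the high, middle and low range of A0.

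Between the low and the high range, 139 of 9014 genes (1.54%) were at least 2-fold higher and 93 (1.03%) at least 2-fold lower in both libraries. Of 68 division genes tested, 2 were higher and 2 lower, with a median log2 ratio of 0.11 in A0 and 0.16 in A10 beside -0.01 for all genes in both. The gene with the largest rise by the smaller of the libraries' ratios was Speer4e, at 65.9 CPM in the low and 4.82 CPM in the high range of A0 and at 81.8 and 6.43 CPM in A10. It belongs to a family of near-identical copies, for which the assignment of reads is uncertain. By the same measure Pou5f2 fell most. The genes named for the ranges were chosen after their values were seen.

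Clustering without the rule genes gave 21 clusters at resolution 1 and put the members mainly into 3 of them. Cluster 3 held 61.4% of A0 members and 62.6% of A10 members, and members were 58.9% and 48.9% of its cells. At resolution 2 the leading cluster held only 38.4% and 41.6% of members. Cluster 5, led by Pou5f2, held 17.6% and 17.4%, and cluster 0, with Speer4e and predicted genes among its leading genes, 11% and 7.8%. The high range lay mostly in cluster 5 (83 of 156 in A0 and 83 of 148 in A10) and the low range in clusters 3 and 0 (92 and 48 of 151 in A0, 71 and 35 of 117 in A10). The clusters are kept as numbers, since the members are a range of a score.

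Division genes were higher in members than in the other cells. Of the 69 genes tested from 3 lists of division genes, 34 were at least 2-fold higher and 3 at least 2-fold lower in members than in other cells in both libraries, against the 12.5% and 24.4% of all genes. Their median log2 ratio was 1.16 in A0 and 1.00 in A10, and that of all genes tested 0.27 and 0.24. Scaling by median of ratios in place of the total moved the median of all genes to -0.03 in both libraries and left 20 division genes higher, against 5.67% of all genes higher and 27.2% lower by that scaling, with a median of 0.85 in A0 and 0.75 in A10. The other cells are a mixture of cell types, whose shares were not counted here.

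Among the kinases and cyclins, 5 of 19 tested were higher. Aurka, the kinase of spindle poles, was at 684 and 659 CPM in members of A0 and A10 and at 187 CPM in the other A0 cells, a log2 ratio of 1.86 in A0 (1.83 to 1.90) and 1.72 in A10 (1.69 to 1.76). Aurkb, the kinase of the chromosomal passenger complex, gave 2.24 (2.11 to 2.36) and 2.15 (2.02 to 2.28). Nek2, a kinase of centrosome separation, was at 252 and 251 CPM with ratios of 1.86 and 1.68. Ccna1, the meiotic A-type cyclin, and Plk1, the polo kinase, were the other members of the list above the threshold. By median of ratios both lay under it, Ccna1 with 0.97 in A0 and 0.94 in A10 and Plk1 with 0.87 and 0.84. Ccne2, a cyclin of the step into replication, was at least 2-fold lower, at 3.76 and 2.80 CPM. Its log2 ratio, -1.18 in A0 and -1.51 in A10, was within 2-fold under some alternatives. It was -0.77 and -0.93 with 1000 cells a library, -0.78 and -0.67 with the rule on thinned cells, and -0.53 and -0.63 with 10 CPM added.

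The spindle and segregation list had most of the genes that rose, 25 of 35 tested, with 1 lower. Sgol2a, which guards centromeric cohesin, was at 137 and 130 CPM with log2 ratios of 2.10 and 1.92. Cdca8, the borealin of the passenger complex, was at 408 and 431 CPM with 2.07 and 1.91, Tpx2, a spindle assembly factor, at 121 and 119 CPM with 1.88 and 1.72, and Smc2, a condensin core protein, at 132 and 130 CPM with 1.87 and 1.76. Kif2c, a kinesin that depolymerises microtubules, went the other way, at 91.9 and 91.4 CPM against 208 CPM in other A0 cells. Of the 15 tested genes of the anaphase promoting complex and exit, 4 were higher, Cdc20, Pttg1 (securin), Espl1 (separase) and Fbxo43, and Cdc16 was lower at 8.97 and 9.13 CPM against 77.6 CPM in other A0 cells.

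Other lists were mixed, and with few genes tested in each, many of their counts lie near the 12.5% higher and 24.4% lower of all genes. In the synaptonemal complex list, 1 of 10 (Sycp3) was higher and 3 were lower, Sycp1 among them at 31.2 and 38.8 CPM against 146 CPM in other A0 cells. Of 5 cohesin genes tested, 3 were lower, Rec8, Rad21 and Smc3, all of which were higher in round spermatid cells. Of 10 recombination genes tested, Spo11 and Mlh3 were higher and Msh4 and Tex11 lower. Msh4 and Tex11 had a UMI in under 5% of members of both libraries and passed the filter through the other cells alone. Of 4 early prophase markers Meioc was higher and Sycp1 lower, and of 7 replication genes Rrm1 and Gins2 were higher. Of 4 spermatogonia markers tested, 1 (Dazl) was lower. Of 8 clock genes tested, 0 were higher or lower. No other adrenergic receptor passed the filter, and the 7 in the table summed to 0.289 CPM in A0 members and 0.411 CPM in A10 members, against 32.0 and 35.1 CPM of Adrb1 itself. Among ribosome biogenesis helicases, Ddx47 and Ddx52 were higher and Ddx10 was lower of 9 tested.

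Over all genes outside the rule, the 10 with the largest rises by the smaller of the libraries' ratios were Fam83d, Chdh, Gem, Pdgfa, Tmem186, Sptbn4, Snx11, Nkx2-4, Adcy6 and Aurkb. Fam83d, a spindle protein, was at 29.7 CPM in A0 members and 31.9 CPM in A10 members against 4.36 and 4.70 CPM in other cells, log2 ratios of 2.52 (2.35 to 2.68) and 2.53 (2.36 to 2.70). Pdgfa, a growth factor, was at 50.05 and 47.2 CPM against 7.23 and 8.80 CPM, and Nkx2-4, a homeobox factor, at 65.3 and 68.8 CPM against 12.3 and 14.3 CPM. Adcy6, an adenylyl cyclase that adrenergic receptors act on, was at 9.40 and 10.9 CPM against 1.29 and 1.63 CPM. The largest falls were Spam1, a sperm hyaluronidase, Ttll7, Spata31, Pp2d1 and Kcne3, each with a log2 ratio below -4 in both libraries.

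Set against pachytene cells, members had a narrower set of raised division genes. Pachytene cells were chosen after the members had been taken out, so members could not be among them, however high in Pou5f2. Members of cluster 5, for example, held 251 CPM of Pou5f2 and 122 CPM of Ccnb1 in A0. Genes that rise with the rule genes can thus be low in pachytene cells in part by the choice. The size of this part was not tested. Among 9717 genes tested, 436 (4.49%) were at least 2-fold higher and 1200 (12.3%) at least 2-fold lower in both libraries. Fewer genes outside the rule, 9014, had a UMI in at least 5% of members of either library. The 9717 thus include genes that passed the filter through pachytene cells alone, which can add to the share that was lower. Of 72 division genes tested, 17 were higher and 10 lower, with a median log2 ratio of 0.63 in both libraries beside -0.13 in A0 and -0.11 in A10 for all genes. Of these 72, 68 had a UMI in at least 5% of members of either library.

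Ccnb1 had the largest ratio of all genes tested by the smaller of the libraries' values. It was at 284 CPM in A0 members and 273 CPM in A10 members, against 24.98 and 22.6 CPM in pachytene cells, log2 ratios of 3.46 (3.29 to 3.63) and 3.54 (3.36 to 3.72). Against all other cells the same gene gave only 0.79 and 0.84, and round spermatid cells of A0 held 87.0 CPM. Plk1 was at 278 and 237 CPM against 35.7 and 33.4 CPM, ratios of 2.92 (2.78 to 3.07) and 2.79 (2.64 to 2.94). Spc25, a kinetochore protein, gave 2.70 and 2.90, Kif23, a kinesin of the central spindle, 2.56 and 2.76, Ube2c, the ubiquitin-conjugating enzyme of the anaphase promoting complex, 2.208 and 2.003, Cdc25a, a phosphatase that removes inhibition from Cdk1, 2.17 and 2.07, and Ccna1 2.03 and 1.98. In the lists, 8 of 20 kinases and cyclins, 7 of 36 spindle genes and 2 of 16 genes of the anaphase promoting complex and exit were higher, and 4, 3 and 3 were lower.

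Some genes of earlier steps were lower. Ccne2 was at 47.9 and 42.1 CPM in pachytene cells and at 3.76 and 2.80 CPM in members, log2 ratios of -3.36 (-3.70 to -3.02) and -3.50 (-3.90 to -3.11). Tex101, a surface protein of germ cells, was at 576 and 460 CPM in pachytene cells and at 44.0 and 49.9 CPM in members. Sycp1, the transverse filament protein of the synaptonemal complex, gave -3.20 and -2.47, while Sycp3 gave -0.61 and -0.47 and Sycp2 -0.71 and -0.67. The latter genes, both of the chromosome axis, were thus within 2-fold of pachytene cells. Of 10 synaptonemal genes, 3 were lower and 0 higher. Among all genes tested against pachytene cells, 12.3% were lower and 4.49% higher. Of 5 early prophase markers tested 3 were lower (Sycp1, Tex101 and Meiob), and of 4 spermatogonia markers 2 (Stk31 and Dazl). In lists not tied to an earlier step, 2 of 9 clock genes (Clock and Cry1) and 2 of 11 helicases (Ddx55 and Ddx10) were lower, near the share of all genes. Of 9 replication genes 3 were lower (Mcm3, Mcm5 and Mcm6), while Rrm2, a subunit of ribonucleotide reductase, was higher with 2.66 and 2.72. Mcm3, Mcm5 and Ddx55 had a UMI in under 5% of members of both libraries and passed the filter through pachytene cells alone. Of 6 pachytene markers tested Pgk2 was higher, and 0 of 5 cohesins, 0 of 10 round and 0 of 10 elongating spermatid markers differed 2-fold. Exosc7, Maz, Eef1e1 and Cep78 were, beside Ccne2, the largest falls, and A930018P22Rik, 2810417H13Rik, Syne2 and 1700067K01Rik, beside Ccnb1, the largest rises. Exosc7, Maz, Eef1e1 and Cep78 also had a UMI in under 5% of members of both libraries and passed the filter through pachytene cells alone.

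**Figure D3:**
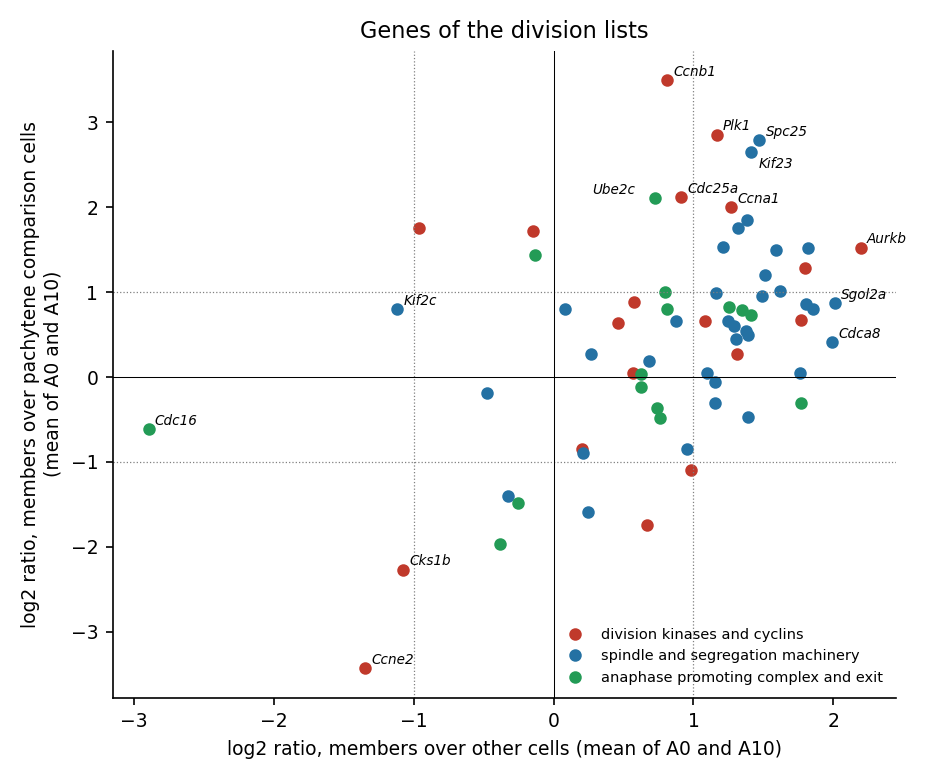
Each point is a gene of the 3 division lists, by its log2 ratio of members over other cells (x axis) and over pachytene cells (y axis), each the mean of A0 and A10, with dotted lines at 2-fold. Ccnb1, Plk1, Spc25 and Kif23 stand at the top, and Cdca8 and Sgol2a, 2-fold above other cells, are within 2-fold of pachytene cells.

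X-linked transcripts were scarce in members. They made up 0.120% of UMIs in A0 members (0.118% to 0.122%) and 0.140% in A10 members (0.138% to 0.143%), against 1.03% and 1.00% in other cells, a difference of -0.908 percentage points in A0 (-0.910 to -0.905) and -0.861 in A10 (-0.863 to -0.858). The rule genes are all autosomal. The share was 1.58% and 1.62% in round spermatid cells and 1.72% and 1.75% in elongating spermatid cells. Pachytene cells had a lower share than members, 0.0947% in A0 and 0.111% in A10, a difference of 0.0254 (0.0228 to 0.0280) and 0.0296 (0.0267 to 0.0324) percentage points. Within the members it stood at 0.0950%, 0.143% and 0.181% in the high, middle and low range of A0 and at 0.105%, 0.174% and 0.215% in A10. The 10 leading X-linked transcripts of members were all higher in round spermatid cells, such as Akap4, a sperm tail protein, at 87.4 CPM in A0 members and 907 CPM in A0 round spermatid cells, and the part of free RNA in the members' share was not tested.

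**Figure D4:**
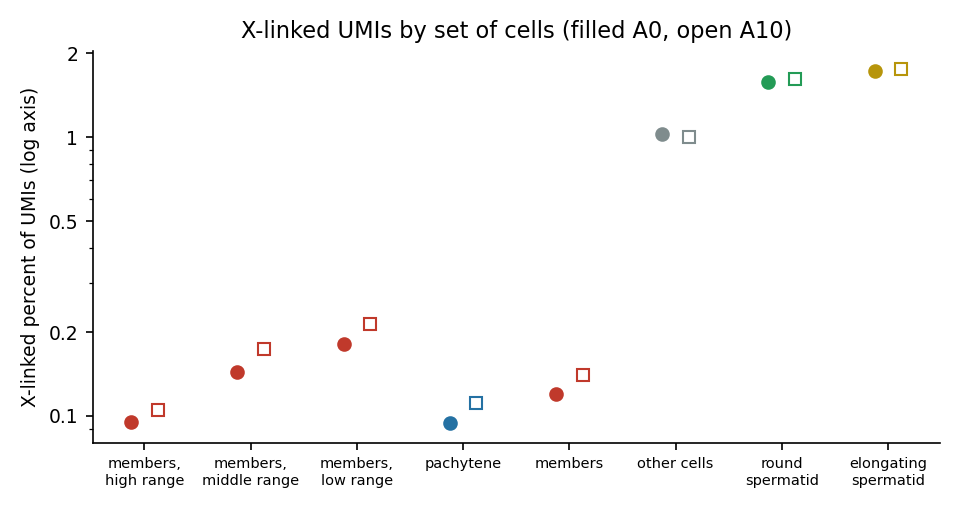
X-linked percent of UMIs (y axis, log scale) in the members by UMI range, in all members and in the other sets of cells, with exact binomial 95% intervals that are mostly smaller than the symbols, filled circles for A0 and open squares for A10. The share in members rose from 0.0950% in the high to 0.181% in the low range of A0, and stayed far under the 1.58% of round spermatid cells.

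The last comparison asked how the members of mice given AOS differed from those of control mice. The number of members is fixed by the rule and is no result. Of 9014 genes tested, few differed 2-fold between the members of A10 and A0. At least 2-fold higher in A10 were 10 genes (0.111%) and lower were 11 (0.122%). The sum of 21 became 56 with 250 cells a library, 37 by means over cells and 3 with 10 CPM added. Of 3109 genes at 50 CPM or more in both, 0 were 2-fold apart. With 1 library a group no test across samples could be run, so neither count has a replicate check. The division lists had a median log2 ratio of -0.03 (median of the genes' bounds -0.15 to 0.08) beside -0.01 for all genes, with 1 of 68 genes past 2-fold. Ccnb1 gave -0.06 (-0.12 to 0.01), Aurka -0.05 (-0.10 to -0.01) and Plk1 -0.23 (-0.30 to -0.16). Elongating spermatid markers had a median of 0.17 and round spermatid markers of 0.19, and Prm1 gave 0.58. Such a rise was not particular to the members, since Tnp1 gave 0.43 in members, 0.30 in the other cells and 0.46 in pachytene cells.

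Ncaph, a condensin subunit, was the division gene past 2-fold, at 8.17 CPM in A0 and 20.2 CPM in A10, a log2 ratio of 1.21 (0.91 to 1.51), and gave 0.51 in the other cells. Eid1, an inhibitor of differentiation, went from 3 UMIs in A0 to 69 UMIs in A10, the largest log2 ratio with 1 CPM added, 2.46 (1.953 to 2.717). Eid1 had a UMI in 0.6% of A0 members and 11% of A10 members, so it passed the filter through A10 alone. It is still counted among the genes 2-fold apart. Cmya5, a muscle protein, had 38 UMIs in A10 and 0 in A0, a CPM 14.4-fold above that of a floor of 3 UMIs in A0 members. This is no lower bound, since the counting error of the 38 UMIs is left out. With a UMI in 7.4% of A10 members, it passed the filter through A10 alone. The gene was at 0 UMIs in the other A0 cells as well, and at 171 UMIs in the other A10 cells, so it differed between the libraries as a whole. Speer1, of a multicopy family, rose from 49.6 to 168 CPM and Gm5861 from 13.2 to 34.5 CPM.

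Fntb, a subunit of protein farnesyltransferase, fell from 29.4 to 4.19 CPM, a log2 ratio of -2.55 (-2.91 to -2.19), and Dapp1, an adaptor protein, from 80.6 to 29.9 CPM, or -1.40 (-1.57 to -1.23). Cela2a, Mapk9 and Sgca gave -2.02, -1.88 and -1.44. Cela2a and Mapk9 had a UMI in 12.8% and 9.8% of A0 members but in 1.8% and 1% of A10 members, so they passed the filter through A0 alone. Only 4 of the 21 genes 2-fold apart were at 10 CPM or more in the members of both libraries. Of the 21 genes 2-fold apart in members, 21 had the same sign in the other cells and 6 were 2-fold apart there too, Dapp1 with -1.27, Fntb with -1.13 and Speer1 with 1.79 among them. The libraries come from outbred mice pooled within groups, so AOS, the mice and the preparation cannot be told apart.

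**Figure D5:**
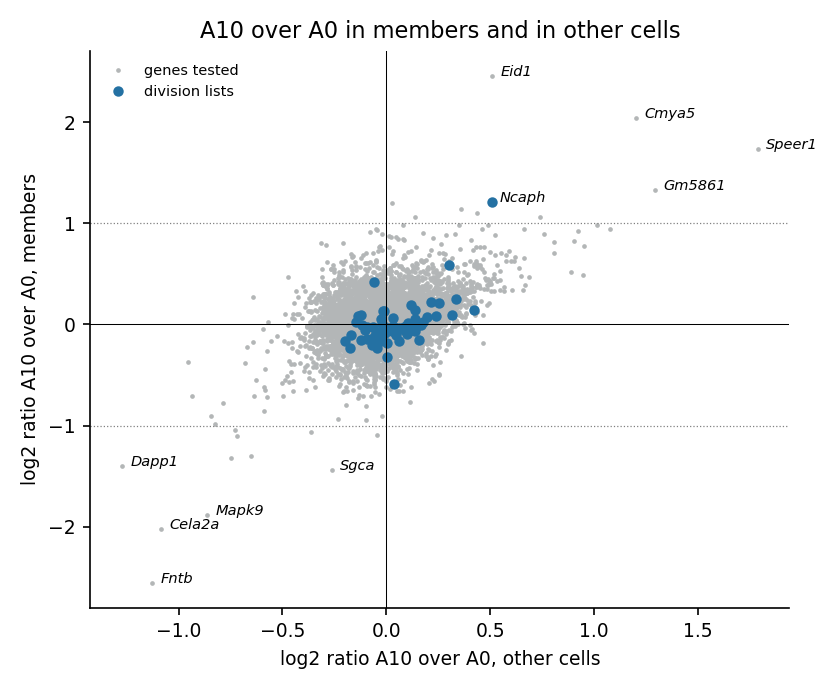
Each point is a gene tested, by its log2 ratio of A10 over A0 in other cells (x axis) and in members (y axis), with genes of the division lists in blue and dotted lines at 2-fold. Most genes lie near 0 on both axes, Ncaph is the division gene above the line, and the named genes have the same sign in both.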

How the data were processed

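The study measured testis cells with the Chromium 3' v2 chemistry, and per the labels the authors processed the reads with Cell Ranger 2.2.0 on mm10. The deposited table of 18419 genes and 27060 cells is on a natural log scale (ln), to which the authors had brought UMIs scaled to 10000 in each cell, with 1 added. Back-transformed values summed to 10000 in every cell, and 100% of those above 0 were whole UMIs within 0.001. According to the methods, the authors removed cells under 200 genes and genes in under 3 cells. The table has 0 mitochondrial genes.

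The members and gene lists were chosen with earlier results of these data known. UMIs were summed over the cells of a set and scaled to CPM, and log2 ratios have 1 CPM added. A gene was tested when at least 5% of the cells of any set compared had a UMI, and was called when 2-fold apart, in both libraries where both were compared. Ratio intervals are conditional binomial, levels Poisson and shares Clopper-Pearson, at 95%, for counting error only. Intervals of differences in X-linked share join the limits of both shares by the root of summed squares. Named genes were list members with a UMI in 5% of members of either library, the 10 largest rises and 5 largest falls over other cells, 5 and 5 over pachytene cells and 5 and 5 for A10 over A0, ranked over other and pachytene cells, and between UMI ranges, by the smaller ratio of the libraries, rule genes left out. Mcm3, Mcm5, Msh4, Tex11 and Ddx55 fall outside this rule and were named, to account for small counts, after their values were seen. UMI ranges and the genes named for them were chosen after their values were seen. Scrublet used an expected rate of 6%. Clusters came from scanpy 1.11.5 (Leiden, 30 components, 2000 variable genes, 15 neighbours). Chromosomes came from GENCODE M21 or RefSeq for 18150 genes, 811 of them X-linked. Knl1, Sgo1 and Sgo2a appear under the older symbols Casc5, Sgol1 and Sgol2a. The ratio and its interval were run on simulated independent Poisson counts. These hold no variation between cells and no choice of cells, so the run checks the calculation only. The splits looked at within members were the Ccnb1 share, clusters and UMI ranges, and the promoters, motifs and CCAAT distance were also chosen with values known. B0 and BA10 entered no comparison, and cells at the members' score were counted and described in them. Groups of 1 library allow no test. Some results of the gene lists are not reported here.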

Additional observations from a re-analysis of the deposited data

Results flagged for a closer look

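Of the libraries that entered no comparison of the report, BA10 held a larger share of cells at the members' score than the control library A0. At or above 0.466, the lowest score of an A0 member, were 555 of 3778 cells in BA10 (14.7%, 13.6% to 15.9%), 562 of 9682 in A10 (5.80%), 500 of 8941 in A0 (5.59%) and 45 of 4659 in B0 (0.966%, 0.705% to 1.29%). With every cell thinned to 2500 UMIs, at the score of the 500th A0 cell, the shares were 13.9% in BA10, 5.37% in A10, 5.63% in A0 and 2.43% in B0. Outside the rule, the chosen cells of BA10 had 282 CPM of Ccnb1 and 789 CPM of Aurka, those of B0 333 and 527 CPM, and A0 members 284 and 684 CPM. The lowest UMI count of a cell was 9013 in BA10 and 2985 in B0, and the part of these limits, of cell mix and of busulfan or AOS in the shares was not tested. Insl3, a Leydig cell hormone, was at 387 CPM in the 45 cells of B0 and 42.9 CPM in those of BA10, against 0.289 CPM in A0 members.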

How the results depend on the processing

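An alternative was close when it lay within the main value's interval, or for a count of genes within 1.5 times of it, and otherwise had moved. Where the interval is narrow, as for X-linked differences, small shifts therefore count as moved. Over the pairs of a main value and an alternative, 50 stayed close and 32 moved, and over those of single genes, shares and other counts 91 stayed close and 102 moved. None changed direction. The count of genes at least 2-fold higher in members, 1240, was 560 by median-of-ratios scaling (2687 lower in place of 2412, as the median of all genes moved from 0.27 and 0.24 to -0.03) and 541 with 10 CPM added (1394 lower). The division genes' median, 1.16 in A0 and 1.00 in A10, was 0.85 and 0.75 by median of ratios, 0.79 and 0.77 with 10 CPM added, and in A10 1.20 by means over cells. The 21 genes 2-fold apart between A10 and A0 became 56 with 250 cells a library, 37 by means over cells and 3 with 10 CPM added. The X-linked difference, -0.908 in A0 and -0.861 in A10, was -0.882 and -0.832 with 250 cells, -0.945 and -0.910 with 1000 cells, -0.861 and -0.830 with the rule on cells thinned to 5000 UMIs, -0.936 and -0.892 without Scrublet calls, -0.925 and -0.924 by means over cells, -0.850 in A10 at 7687 UMIs or more, and -0.913 to -0.888 in A0 and -0.868 to -0.841 in A10 with any 1 rule gene left out. The ratio of median UMIs, 1.79 and 1.83, was 1.64 and 1.76 with 1000 cells, 1.61 and 1.67 with thinned cells, 1.70 in A10 at 7687 UMIs or more, and as low as 1.69 and 1.73 without 1 rule gene. In an alternative added after seeing the data, the thinned rule put 41.4% of A0 and 35.6% of A10 members in the low UMI range, against 30.2% and 23.4%. Except where the construction shows it, the cause was not tested. No paired analysis was possible because each group is 1 library, and no replicate could be left out. Counting intervals leave out variation between mice and between cells, and cells under each library's lowest UMI count cannot be seen.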
